A study of Mus musculus with 26 samples.

Results

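Nonpeptidergic nociceptors were set against Aβ rapidly adapting low-threshold mechanoreceptors (Aβ RA-LTMRs), small unmyelinated against large myelinated sensory neurons that both supply the skin. The comparison takes the 3 libraries labelled as nonpeptidergic nociceptors and the 5 labelled as Aβ RA-LTMRs, 8 of the 26 libraries of a series on 8 subtypes of mouse dorsal root ganglion neuron. The nociceptors carried MrgD-EGFP and the RA-LTMRs Npy2r-GFP, fluorescent reporters of the genes Mrgprd and Npy2r. Mice of both groups were adult, at postnatal day 23 or later, and had no tamoxifen. Ganglia of all axial levels were dissociated, the fluorescent neurons were sorted, and each library pooled several mice and several sorts. Reporter line and cell type cannot be told apart, and p-values measure the spread between these pools.

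Nonpeptidergic nociceptors are C fibres that end freely in the epidermis. They are known for responses to noxious mechanical stimuli and, through Mas-related receptors, to some compounds that cause itch. Aβ RA-LTMRs end around hair follicles and in touch corpuscles, conduct fast, and fire briefly when a touch begins and ends. Receptors and transduction channels in the skin terminal start the impulse, and voltage-gated sodium and potassium channels set its shape and rate.

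Promoters are shown for 6 genes that the results below turn on, with the motif of Runx1, a transcription factor that nociceptors depend on and whose RNA was higher in them. The sequences are from RefSeq on build GRCm38.p6, and each gives the 250 bases before the transcript start, 5′ to 3′ on the gene's strand. Capitals mark TGTGGT and TGCGGT, the forms of the Runx motif that were searched on both strands. Mrgprd (chr7:145314585-145314834, + strand) codes for the receptor that gives MrgD neurons their name, Trpv1 (chr11:73233899-73234148, + strand) for the capsaicin receptor and Nmb (chr7:80905063-80905312, - strand) for the neuropeptide neuromedin B, and the RNA of all 3 was higher in nociceptors. Scn8a (chr15:100870395-100870644, + strand) codes for the main sodium channel of nodes of Ranvier, Nfasc (chr1:132707327-132707576, - strand) for the nodal adhesion protein neurofascin and Ntrk2 (chr13:58806319-58806568, + strand) for TrkB, the BDNF receptor, and the RNA of all 3 was lower in nociceptors.
Mrgprd: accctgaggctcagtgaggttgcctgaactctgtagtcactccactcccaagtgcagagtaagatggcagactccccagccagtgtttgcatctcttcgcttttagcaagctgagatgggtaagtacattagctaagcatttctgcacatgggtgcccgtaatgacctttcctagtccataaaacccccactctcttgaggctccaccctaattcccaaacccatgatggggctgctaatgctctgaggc
Trpv1: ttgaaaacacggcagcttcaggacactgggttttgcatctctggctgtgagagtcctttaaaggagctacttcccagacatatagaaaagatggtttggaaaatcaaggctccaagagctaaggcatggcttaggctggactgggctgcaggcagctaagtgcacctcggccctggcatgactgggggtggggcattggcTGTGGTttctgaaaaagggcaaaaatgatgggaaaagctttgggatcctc
Nmb: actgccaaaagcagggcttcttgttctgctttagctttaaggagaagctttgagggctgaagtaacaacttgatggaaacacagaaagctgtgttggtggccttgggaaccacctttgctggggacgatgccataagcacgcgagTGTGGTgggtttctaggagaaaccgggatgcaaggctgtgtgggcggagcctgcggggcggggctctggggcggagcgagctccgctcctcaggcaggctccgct
Scn8a: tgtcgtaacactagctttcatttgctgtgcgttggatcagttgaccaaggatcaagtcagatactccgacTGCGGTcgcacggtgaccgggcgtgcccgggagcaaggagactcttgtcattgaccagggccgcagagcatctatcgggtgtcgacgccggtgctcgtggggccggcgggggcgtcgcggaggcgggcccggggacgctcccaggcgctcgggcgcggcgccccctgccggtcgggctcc
Nfasc: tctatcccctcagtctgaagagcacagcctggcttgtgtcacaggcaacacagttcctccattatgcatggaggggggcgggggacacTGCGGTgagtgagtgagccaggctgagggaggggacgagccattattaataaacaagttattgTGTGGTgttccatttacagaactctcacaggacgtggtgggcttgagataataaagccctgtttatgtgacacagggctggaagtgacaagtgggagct
Ntrk2: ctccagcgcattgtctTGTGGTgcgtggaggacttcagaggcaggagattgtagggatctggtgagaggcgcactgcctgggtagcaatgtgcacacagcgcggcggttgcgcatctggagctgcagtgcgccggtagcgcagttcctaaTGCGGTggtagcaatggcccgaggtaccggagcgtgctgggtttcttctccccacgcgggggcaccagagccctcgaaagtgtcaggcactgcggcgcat
One form or the other was in 2042 of the 11813 promoters matched to the genes tested, 17.3%. By call, it was in 17.1% for genes higher in nociceptors, 15.4% for lower genes and 17.9% for genes not called. These shares were not tested against each other. The windows of Trpv1 and Nmb, higher in nociceptors, held the motif, and so did those of Scn8a, Nfasc and Ntrk2, which were lower. It was not in the Mrgprd window. The 6 windows were picked with the search results known, so their share holding the motif says nothing about promoters at large.

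The total count per library was 40767934 to 56828599 in nociceptors and 22651313 to 55983697 in RA-LTMRs. The exonic share of reads was 65.7% to 67.2% in nociceptors and 68.2% to 77.6% in 3 of the RA-LTMR libraries, and RA-LTMR libraries 4 and 5 stood apart at 56.1% and 45.7%. Read lengths ranged from 15 to 50 bases in the nociceptors and in RA-LTMR libraries 4 and 5, and from 25 to 50 bases in the other 3 RA-LTMR libraries. Mitochondrial ribosomal RNA took 12.2% to 12.7% of the counts in nociceptors and 22.9% to 28.4% in RA-LTMRs, with no overlap. A score of 16 satellite glia markers, the mean of their log2 CPM, was 3.82 to 4.23 in nociceptors and 6.19 to 6.77 in RA-LTMRs, again with no overlap. Either difference had an exact two-sided permutation p of 0.0357, the smallest that 3 against 5 libraries can give, and 0.125 after adjustment over 21 measures. Adjusting the fit for the glia score left fewer calls in all and in many of the gene lists below: 4 TRP channels, 7 Mas-related receptors, 8 itch, lipid and cytokine receptors and 9 transcription factors were then higher, and 4 of those factors lower.

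**Figure D1:**
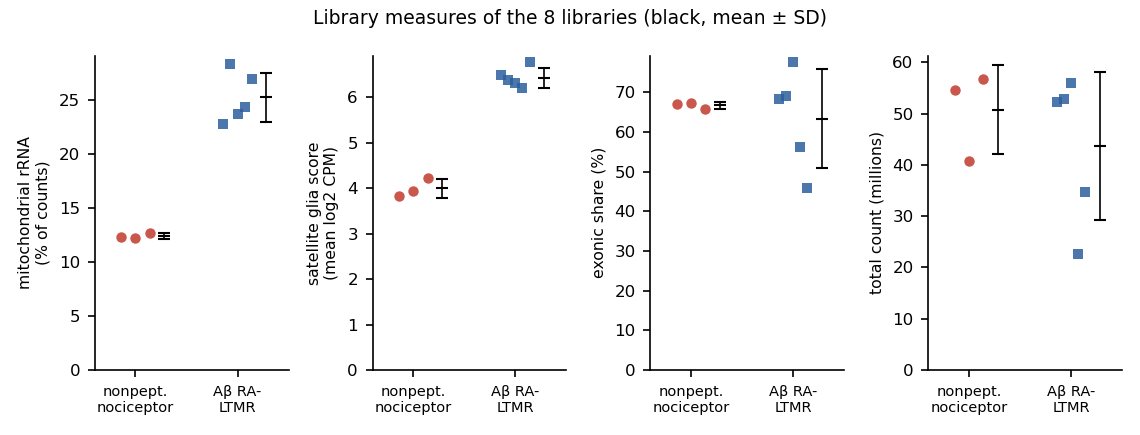
Mitochondrial ribosomal RNA (% of counts), satellite glia score (mean log2 CPM), exonic share (%) and total count of the 8 libraries, nonpeptidergic nociceptors at the left (circles) and Aβ RA-LTMRs at the right (squares) of each panel, with mean ± SD in black. The first 2 measures do not overlap between the groups (12.2% to 12.7% against 22.9% to 28.4%; 3.82 to 4.23 against 6.19 to 6.77), and exonic share and total count do.

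Of 17411 genes tested, 2769 were higher in nociceptors (15.9%) and 3404 were lower (19.6%), at an adjusted p under 0.05 and a log2 fold change of at least 1 in size. These are edgeR quasi-likelihood results, with log2 fold changes of nociceptors minus RA-LTMRs; levels below are CPM, counts divided by the TMM-scaled library size, and each ± beside a log2 fold change is its SE (n = 3 and n = 5). The differences were larger on the low side. The genes lower in nociceptors had a median log2 fold change of -3.01, and 659 of them differed by at least 32-fold. The genes higher in nociceptors had a median of 1.90, and 258 differed by at least 32-fold. The libraries of the groups did not overlap for 2630 of the 2769 higher genes and 3006 of the 3404 lower genes. Among all 17411 genes tested it was 8859, or 50.9%. Called genes were picked for a difference between these same libraries, so little overlap among them is built in. When the fit adjusted for the satellite glia score, 788 genes were higher and 1124 lower, and 28.5% of the calls were kept. Without RA-LTMR libraries 4 and 5, 2727 were higher and 3519 lower. On log2(RPKM + 1), which shrinks low levels, 2108 were higher and 1647 lower. Each count of list members below is to be set beside the shares of all genes tested, 15.9% higher and 19.6% lower.

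**Figure D2:**
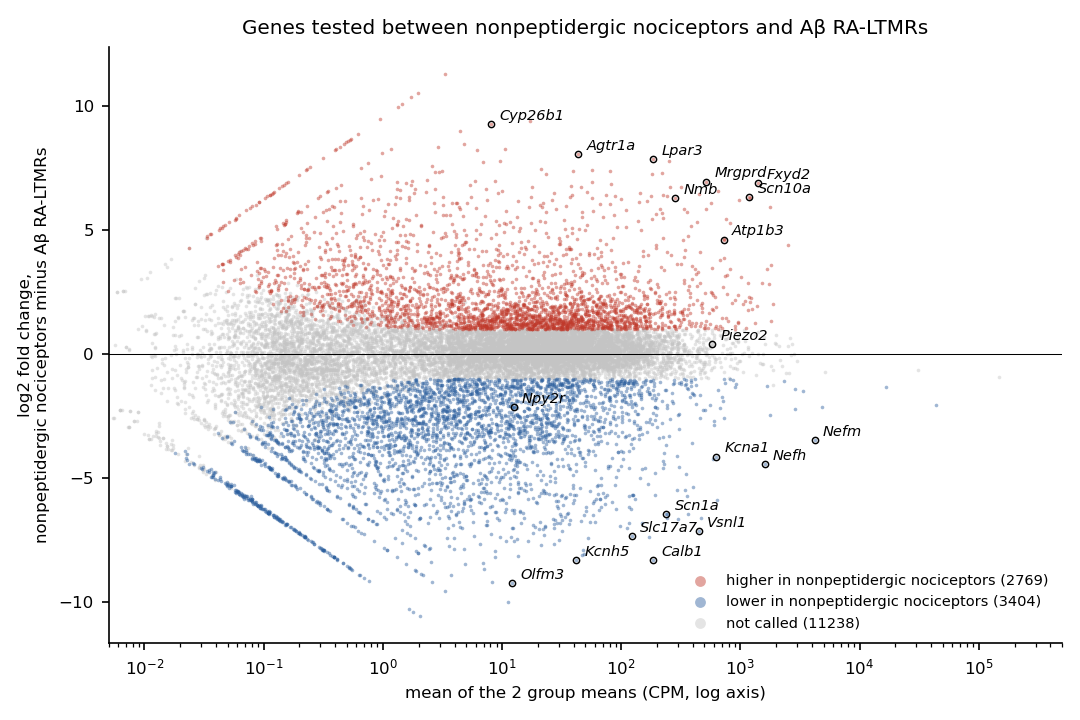
Log2 fold change of each of the 17411 genes tested, nonpeptidergic nociceptors minus Aβ RA-LTMRs, against the mean of both group means (CPM, log axis). Coloured points passed the test (2769 higher, 3404 lower), circled genes are named in the text, and the straight streaks at low levels are genes with few counts or none in one group.

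Small-fibre and large-fibre neurons were also compared in other libraries of the series, peptidergic nociceptors and C-LTMRs against Aβ SA1- and Aβ Field-LTMRs, which share no library with the comparison above. There 2492 genes were higher (14.3%) and 1890 lower (10.9%). Of the 2769 genes higher in nonpeptidergic nociceptors than in RA-LTMRs, 38.9% were higher in the other small-fibre libraries too and 1.77% were lower. Of the 3404 lower genes, 35.7% were lower there and 7.46% were higher. Of the 11238 genes not called, 10.3% were higher and 5.57% lower.

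The genes of the reporters were each higher in the cell type they labelled. Mrgprd RNA was at 808, 1183 and 1086 CPM in nonpeptidergic nociceptors, against 5.35, 1.17, 5.18, 14.5 and 15.7 CPM in Aβ RA-LTMRs. Every nociceptor library was far above every RA-LTMR library, with a log2 fold change of 6.96 ± 0.59 (edgeR adjusted p = 6.37e-10). Npy2r, a receptor for neuropeptide Y, was at 2.35, 5.64 and 5.95 CPM in nonpeptidergic nociceptors, against 15.4, 25.9, 25.1, 19.9 and 15.6 CPM in Aβ RA-LTMRs. All RA-LTMR libraries were the higher, at -2.13 ± 0.69 (edgeR adjusted p = 0.0126), but the call was lost without nociceptor library 1 (-1.81, edgeR adjusted p = 0.0748), against the RA-LTMR libraries of the same read-length range alone (-2.02, edgeR adjusted p = 0.0555), with read length in the fit (-1.93, edgeR adjusted p = 0.0614) and with the glia score in the fit (-0.29). Its mean level was highest in a subtype outside the comparison, with 52.9 CPM in peptidergic nociceptors, 13.8 CPM in C-LTMRs, 6.63 CPM in Aδ-LTMRs, 1.68 CPM in Aβ SA1-LTMRs, 3.72 CPM in Aβ Field-LTMRs and 0.755 CPM in proprioceptors.

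Of 14 textbook markers of nonpeptidergic nociceptors, 14 were higher, where 15.9% of all genes tested were, with a median log2 fold change of 6.35 against 0.016 over all genes tested. They summed to 11154 to 12067 CPM in nociceptors and 344 to 413 CPM in RA-LTMRs. The list was chosen with earlier results of these data known. It holds Mrgprd, whose reporter the nociceptors were sorted by, and Gfra2, which is also on the list of RA-LTMR markers. The count is therefore not independent support for the labels. P2rx3, the ATP-gated channel of sensory endings, was at 449.6, 433 and 457 CPM in nonpeptidergic nociceptors, against 4.12, 4.27, 3.81, 10.1 and 4.53 CPM in Aβ RA-LTMRs. Lpar3, a lysophosphatidic acid receptor, was at 408, 352 and 346 CPM in nonpeptidergic nociceptors, against 1.51, 0.586, 1.12, 4.18 and 0.937 CPM in Aβ RA-LTMRs. In both genes the nociceptor libraries lay close together and RA-LTMR library 4 was the highest of its group; the log2 fold changes were 6.40 ± 0.34 and 7.88 ± 0.55. Agtr1a, the angiotensin II receptor, was at 79.3 to 99.3 CPM in the nociceptors, against 0.146 to 0.666 CPM in the RA-LTMRs (8.08 ± 0.51), and Prkcq, a protein kinase C, at 333 to 375 CPM in the nociceptors, against 1.26 to 3.64 CPM in the RA-LTMRs (7.28 ± 0.76). Of 12 markers of Aβ RA-LTMRs, 10 were lower, where 19.6% of all genes tested were, and 2 were higher. Calb1, a calcium buffer of these touch neurons, was at 2.35, 0.162 and 0.878 CPM in nonpeptidergic nociceptors, against 383, 493, 425, 189.6 and 365 CPM in Aβ RA-LTMRs. Its level in the lowest RA-LTMR library, number 4, was still over that in any nociceptor library, and the log2 fold change was -8.33 ± 0.74, or -9.40 without nociceptor library 1, the highest of its group. The 2 markers that ran the other way were the GDNF-family receptor genes. Gfra2, the neurturin co-receptor, was at 851 to 893 CPM in the nociceptors, against 40.02 to 58.3 CPM in the RA-LTMRs (4.13 ± 0.37), and Ret, the shared signalling receptor, at 1199 to 1260.5 CPM in the nociceptors, against 464 to 629 CPM in the RA-LTMRs (1.12 ± 0.16). Without RA-LTMR libraries 4 and 5, Ret stood at 0.98 and was no longer called.

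The markers of other sensory subtypes split as well. Of 10 peptidergic nociceptor markers, 5 were higher, 2 lower (1 without RA-LTMR library 3) and 3 not called. Kit, the stem cell factor receptor, was among the lower ones. It was at 4.83 to 6.33 CPM in the nociceptors, against 23.3 to 36.5 CPM in the RA-LTMRs (-2.44 ± 0.31). Tac1, the gene of substance P, was at 172, 138 and 157 CPM in nonpeptidergic nociceptors, against 5.53, 6.46, 9.43, 9.55 and 12.1 CPM in Aβ RA-LTMRs, and its groups were far apart (4.18 ± 0.38). Calca, the gene of CGRP, was at 474, 410.4 and 303 CPM in nonpeptidergic nociceptors, against 15.6, 8.85, 30.1, 49.8 and 70.7 CPM in Aβ RA-LTMRs. The lowest nociceptor library was over the highest RA-LTMR library, number 5, and the log2 fold change was 3.50 ± 0.51. Both peptide genes were nevertheless much higher in peptidergic nociceptors, at a mean of 3556 CPM for Calca and 671 CPM for Tac1. Of 8 C-LTMR markers, 4 were higher (2 without nociceptor library 1, and 2 without RA-LTMR libraries 4 and 5) and 1 was lower, of 5 Aδ-LTMR markers 5 were lower, and of 8 proprioceptor markers 7 were lower.

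Different sodium channels were high in each cell type. Of 10 alpha subunits tested, 3 were higher and 4 lower in nociceptors. Scn10a, a tetrodotoxin-resistant channel that carries the nociceptor action potential, was at 2443, 2358 and 2258 CPM in nonpeptidergic nociceptors, against 19.5, 8.79, 22.2, 54.2 and 42.3 CPM in Aβ RA-LTMRs. The groups lay far apart, with a log2 fold change of 6.33 ± 0.49. Scn11a, the persistent tetrodotoxin-resistant channel, was at 2583, 2287 and 2290.5 CPM in nonpeptidergic nociceptors, against 29.8, 11.03, 26.4, 44.6 and 39.2 CPM in Aβ RA-LTMRs, as far apart (6.31 ± 0.36). Scn1a, a fast tetrodotoxin-sensitive channel, was at 11.5, 1.29 and 3.28 CPM in nonpeptidergic nociceptors, against 435, 513, 587, 496 and 328 CPM in Aβ RA-LTMRs. It was the reverse of the resistant channels, at -6.46 ± 0.51, and at -7.66 without nociceptor library 1, which held most of its RNA in that group. Scn8a, the nodal channel whose promoter is shown above, was at 32.02, 33.5 and 29.8 CPM in nonpeptidergic nociceptors, against 572, 563, 669, 635 and 342 CPM in Aβ RA-LTMRs. Its groups did not overlap either (-4.13 ± 0.25). Scn9a, the channel lost in congenital insensitivity to pain, was at 654, 629 and 597 CPM in nonpeptidergic nociceptors, against 385, 417, 499.9, 269 and 223 CPM in Aβ RA-LTMRs; the nociceptor libraries were the higher, but 0.80 ± 0.27 was short of the fold threshold. It was called against the RA-LTMR libraries of the same read-length range alone (1.26) and with read length in the fit (1.35). Scn7a, an atypical channel that senses sodium, was lower (280.4 to 327 CPM in the nociceptors, against 822 to 1461 CPM in the RA-LTMRs; -1.91 ± 0.18). Per length, the order in nociceptors was Scn10a at 324 ± 11.9 RPKM, Scn11a at 295 ± 21.2, Scn9a at 32.9 ± 0.6896 and Scn7a at 18.5 ± 1.77 (mean ± SD, n = 3). In RA-LTMRs it was Scn7a at 86.9 ± 27.7 RPKM, Scn1a at 76.5 ± 12.3, Scn8a at 36.9 ± 11.6 and Scn9a at 25.8 ± 10.1 (mean ± SD, n = 5). The first 2 of each order overlap within their spread, as do Scn8a and Scn9a in RA-LTMRs.

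The auxiliary subunits of sodium channels divided too, with 3 of 8 higher and 4 lower. Scn4b, a subunit tied to resurgent current in fast-firing neurons, was at 17.1, 39.8 and 40.7 CPM in nonpeptidergic nociceptors, against 171, 246, 192, 273 and 237 CPM in Aβ RA-LTMRs. It was lower in nociceptors with no overlap, at -2.78 ± 0.27. Scn3b was at 47.8 to 68.5 CPM in the nociceptors, against 11.02 to 22.7 CPM in the RA-LTMRs and higher (1.93 ± 0.21). The FGF homologous factors, which bind the channels inside the cell, split in the same way: Fgf13 was at 1021, 964 and 1081 CPM in nonpeptidergic nociceptors, against 201, 177, 157, 217 and 277 CPM in Aβ RA-LTMRs (2.31 ± 0.19), whereas Fgf11 was at 0.347 to 1.82 CPM in the nociceptors, against 37.2 to 51.7 CPM in the RA-LTMRs (-5.26 ± 0.40). Fgf12 was at 144 to 192 CPM in the nociceptors, against 123 to 140.4 CPM in the RA-LTMRs and was not called.

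The Kv1 potassium channels were split, with 3 of 10 genes higher and 4 lower. Kcna1, a low-threshold channel of the juxtaparanode, was at 76.4, 62.8 and 63.5 CPM in nonpeptidergic nociceptors, against 1250.1, 1326, 1457, 1048 and 881 CPM in Aβ RA-LTMRs. Kcna2, its partner, was at 51.5 to 64.05 CPM in the nociceptors, against 247 to 407 CPM in the RA-LTMRs. The log2 fold changes were -4.14 ± 0.24 and -2.46 ± 0.23. Kcnc1, a fast delayed rectifier of another family, which lets neurons repolarise quickly, was at 2.98, 1.76 and 1.56 CPM in nonpeptidergic nociceptors, against 83.6, 74.04, 95.4, 117 and 74.5 CPM in Aβ RA-LTMRs. It was lower, at -5.40 ± 0.26. Other Kv1 members were the higher: Kcna6 at 81.1 to 90.2 CPM in the nociceptors, against 5.502 to 12.1 CPM in the RA-LTMRs (3.18 ± 0.24) and Kcna4, an inactivating channel, at 29.8 to 35.7 CPM in the nociceptors, against 1.94 to 7.55 CPM in the RA-LTMRs (2.51 ± 0.40). Kcnab2, an accessory subunit, was at 319.6 to 344 CPM in the nociceptors, against 512 to 711 CPM in the RA-LTMRs and short of the fold threshold (-0.82 ± 0.17), which it passed against the RA-LTMR libraries of the same read-length range alone (-1.06).

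Among Kv2 to Kv4 channels with their silent and accessory subunits, 11 of 24 were higher and 7 lower. Kcnip2, an accessory subunit of Kv4 channels, was at 271, 358 and 352 CPM in nonpeptidergic nociceptors, against 4.66, 2.699, 3.87, 7.77 and 4.25 CPM in Aβ RA-LTMRs. Kcnd3, a Kv4 pore subunit, was at 159 to 230.2 CPM in the nociceptors, against 35.2 to 50.1 CPM in the RA-LTMRs. Neither overlapped between groups, and the log2 fold changes were 6.15 ± 0.33 and 2.17 ± 0.25. Kcnd2, another Kv4 gene, was lower, at 0.0166 to 0.303 CPM in the nociceptors, against 1.53 to 13.9 CPM in the RA-LTMRs (-5.82 ± 0.76; -7.06 without nociceptor library 1), and on log2(RPKM + 1) it was not called (-0.95). Silent subunits, which form channels only with Kv2 partners, were higher in 3 named cases: Kcnf1 at 30.2 to 48.3 CPM in the nociceptors, against 0.489 to 1.54 CPM in the RA-LTMRs (5.36 ± 0.69), Kcng3 at 94.9 to 97.96 CPM in the nociceptors, against 2.09 to 4.37 CPM in the RA-LTMRs (5.01 ± 0.41) and Kcng2 at 27.9 to 33.2 CPM in the nociceptors, against 0.858 to 3.31 CPM in the RA-LTMRs (4.22 ± 0.53). Another, Kcns3, was lower (9.48 to 10.2 CPM in the nociceptors, against 41.98 to 75.9 CPM in the RA-LTMRs; -2.67 ± 0.49).

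In the Kv7, EAG, ERG and ELK families 6 of 13 were lower and 2 higher. Kcnh5, a channel of the EAG family, was at 0.659, 0.0693 and 0.0331 CPM in nonpeptidergic nociceptors, against 93.6, 107, 89.7, 72.5 and 55.4 CPM in Aβ RA-LTMRs. It was near 0 in all nociceptor libraries except a trace in library 1; the log2 fold change was -8.31 ± 0.60, or -10.67 without that library. Kcnq3, a subunit of M-type channels, was at 9.69, 2.77 and 1.43 CPM in nonpeptidergic nociceptors, against 259, 255, 253, 272 and 159 CPM in Aβ RA-LTMRs. It was lower, at -5.69 ± 0.55, or -6.84 without nociceptor library 1. Kcnh2, an ERG channel, was at 1.69 to 3.599 CPM in the nociceptors, against 157 to 233 CPM in the RA-LTMRs (-6.24 ± 0.30), while Kcnh6, of the same family, was higher at 49.2 to 50.9 CPM in the nociceptors, against 11.1 to 14.8 CPM in the RA-LTMRs (1.94 ± 0.19).

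Of 11 tandem-pore leak channels, 3 were higher and 6 lower. Kcnk13 was at 21.7 to 25.6 CPM in the nociceptors, against 0.293 to 1.34 CPM in the RA-LTMRs (5.12 ± 0.61) and Kcnk18, the calcineurin-regulated channel TRESK, at 18.2 to 27.4 CPM in the nociceptors, against 3.04 to 6.17 CPM in the RA-LTMRs (2.30 ± 0.40). Kcnk1 was at 10.5, 4.74 and 4.76 CPM in nonpeptidergic nociceptors, against 143, 127, 139.5, 128 and 232 CPM in Aβ RA-LTMRs; it was lower in nociceptors (-4.52 ± 0.30). Of 21 calcium- or sodium-activated and inward-rectifier channel genes, 8 were higher and 8 lower. The higher ones hold both parts of the BK channel, the large-conductance channel opened by calcium. Kcnma1, its pore, was at 101 to 105 CPM in the nociceptors, against 18.5 to 37.4 CPM in the RA-LTMRs (1.83 ± 0.19), and its beta subunit Kcnmb1 at 102, 183 and 239 CPM in nonpeptidergic nociceptors, against 1.34, 0.649, 1.34, 3.33 and 4.28 CPM in Aβ RA-LTMRs (6.37 ± 0.45). Kcnt1, a sodium-activated channel, was at 289, 340.5 and 324 CPM in nonpeptidergic nociceptors, against 20.2, 17.3, 23.2, 21.9 and 16.2 CPM in Aβ RA-LTMRs, again with no overlap (4.01 ± 0.21).

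Of 21 calcium channel genes, 7 were higher and 5 lower. Cacna1c, an L-type channel, was at 72.4, 72.3 and 65.1 CPM in nonpeptidergic nociceptors, against 3.08, 3.22, 4.199, 5.15 and 2.87 CPM in Aβ RA-LTMRs, and Cacna1b, the N-type channel of presynaptic terminals, at 385 to 425 CPM in the nociceptors, against 47.5 to 102 CPM in the RA-LTMRs. Both were higher (4.25 ± 0.45 and 2.41 ± 0.21), as was Cacna2d1, the subunit that gabapentin binds (287 to 308 CPM in the nociceptors, against 23.8 to 60.4 CPM in the RA-LTMRs; 2.92 ± 0.24). Cacna1h, a T-type channel known in D-hair neurons, was at 1.91, 1.06 and 1.52 CPM in nonpeptidergic nociceptors, against 42.8, 43.998, 48.6, 28.7 and 36.2 CPM in Aβ RA-LTMRs. Here the RA-LTMR libraries were all the higher (-4.73 ± 0.34), and so they were for the auxiliary genes Cacnb2 (-5.77 ± 0.36) and Cacng5 (-5.71 ± 0.36). Of the pacemaker HCN channels, Hcn2 was lower (2.68 to 3.54 CPM in the nociceptors, against 23.8 to 35.8 CPM in the RA-LTMRs; -3.13 ± 0.24), and Hcn3 was higher (36.2 to 39.7 CPM in the nociceptors, against 7.24 to 10.9 CPM in the RA-LTMRs; 2.09 ± 0.21).

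**Figure D3:**
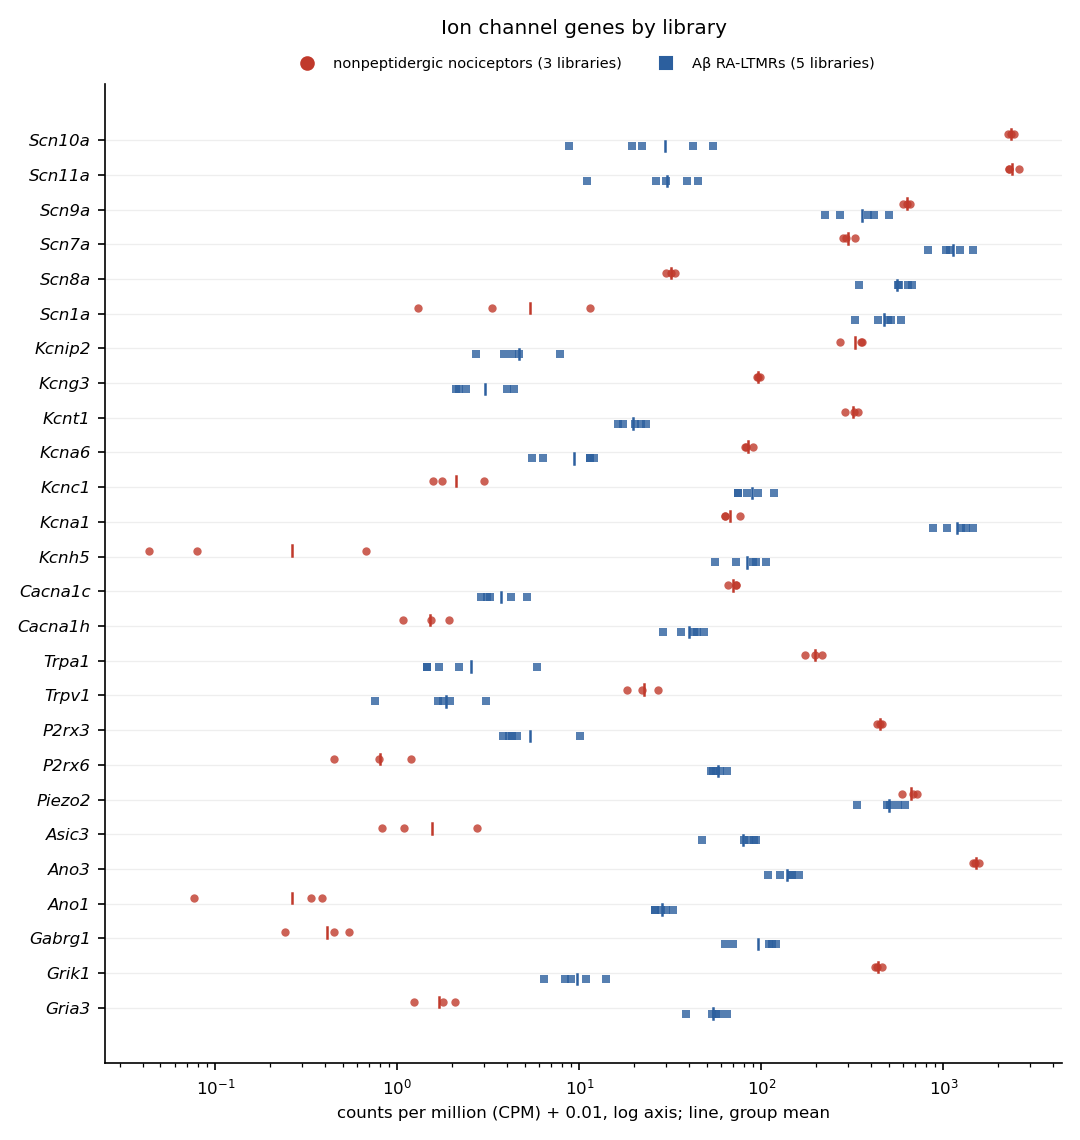
Level of 26 ion channel genes in each library (CPM + 0.01, log axis), nonpeptidergic nociceptors as red circles above Aβ RA-LTMRs as blue squares in each row, with a vertical line at each group mean. Rows such as Scn10a (2258 to 2443 against 8.79 to 54.2 CPM) and Kcna1 (62.8 to 76.4 against 881 to 1457 CPM) show groups far apart in opposite directions, and Piezo2 overlaps.

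Of 20 TRP channels, which open to heat, cold, irritants or receptor signals, 9 were higher in nociceptors and 3 lower (1 without any one of nociceptor libraries 1 and 2 and RA-LTMR libraries 2 and 3). Trpa1, the channel opened by mustard oil and other irritants, was at 198, 174 and 216 CPM in nonpeptidergic nociceptors, against 2.18, 1.44, 5.84, 1.69 and 1.44 CPM in Aβ RA-LTMRs. RA-LTMR library 3 was the highest of its group and still far below; the log2 fold change was 6.25 ± 0.47, and 6.85 without that library. Trpv1, the capsaicin receptor, was at 18.3, 22.1 and 26.997 CPM in nonpeptidergic nociceptors, against 0.744, 1.95, 3.08, 1.78 and 1.65 CPM in Aβ RA-LTMRs. It was higher in every nociceptor library (3.61 ± 0.55), yet at 6.15 ± 1.24 RPKM there it was under Trpa1 at 23.2 ± 2.76 RPKM (mean ± SD, n = 3), and its mean in peptidergic nociceptors was 171 CPM. Trpm2, a channel opened by ADP-ribose, was lower (2.54 to 2.65 CPM in the nociceptors, against 16.9 to 27.2 CPM in the RA-LTMRs; -2.98 ± 0.22).

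Piezo2, the channel of light touch, did not separate the cell types. It was at 719, 684 and 592 CPM in nonpeptidergic nociceptors, against 489, 561, 611, 511 and 336 CPM in Aβ RA-LTMRs, with overlapping groups, a log2 fold change of 0.41 ± 0.20 and an edgeR adjusted p of 0.101. Of 18 mechanotransduction and acid-sensing genes, Piezo2 among them, 4 were higher and 5 lower, where 15.9% and 19.6% of all genes tested were. Asic3, the channel most sensitive to acid, was at 2.73, 0.809 and 1.08 CPM in nonpeptidergic nociceptors, against 47.4, 93.3, 90.7, 79.9 and 85.6 CPM in Aβ RA-LTMRs, and Asic1 at 1.39 to 2.32 CPM in the nociceptors, against 23.98 to 33.9 CPM in the RA-LTMRs. Both were lower in nociceptors (-5.68 ± 0.40, or -6.38 without nociceptor library 1, and -3.93 ± 0.30), whereas Asic2 was higher (119 to 142 CPM in the nociceptors, against 32.5 to 40.2 CPM in the RA-LTMRs; 1.88 ± 0.16). Tmem63a, of the osmosensitive TMEM63 family, was at 78.3, 83.8 and 83.9 CPM in nonpeptidergic nociceptors, against 3.23, 3.08, 2.93, 3.69 and 3.37 CPM in Aβ RA-LTMRs and higher (4.66 ± 0.29); Tmem63c was also higher (1.59 ± 0.17) and Tmem63b lower (-1.07 ± 0.16), though on log2(RPKM + 1) and log2(RPKM + 0.1) Tmem63b was short of the fold threshold (-0.77 and -0.79). Of the anoctamins, Ano3 was at 1495, 1559 and 1448 CPM in nonpeptidergic nociceptors, against 126, 148, 161, 109 and 144 CPM in Aβ RA-LTMRs, and Ano1, the calcium-activated chloride channel, at 0.374, 0.324 and 0.0663 CPM in nonpeptidergic nociceptors, against 32.5, 29.9, 28.2, 26.2 and 26.1 CPM in Aβ RA-LTMRs. They ran in opposite directions (3.45 ± 0.15 and -6.83 ± 0.48). Among ATP-gated channels P2rx3 was higher, as given above, and P2rx6 and P2rx5 were lower (0.439 to 1.18 CPM in the nociceptors, against 52.6 to 64.9 CPM in the RA-LTMRs, -6.15 ± 0.33, for P2rx6 and -3.86 ± 0.26 for P2rx5).

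Of 16 GABA-A receptor and chloride cotransporter genes, 10 were lower, 0 were higher and 6 were not called, with a median log2 fold change of -3.10. Gabrg1 was at 0.535, 0.439 and 0.232 CPM in nonpeptidergic nociceptors, against 120.1, 109.9, 115, 69.4 and 62.9 CPM in Aβ RA-LTMRs, Gabrb2 at 0.0994 to 0.481 CPM in the nociceptors, against 28.1 to 71.4 CPM in the RA-LTMRs and Gabra4 at 0 to 0.125 CPM in the nociceptors, against 8.04 to 17.2 CPM in the RA-LTMRs. The 3 genes code for subunits of the channel and were close to 0 in nociceptors, with log2 fold changes of -7.90 ± 0.50, -7.69 ± 0.52 and -7.67 ± 0.67 (-8.51 for Gabrb2 and -8.71 for Gabra4 without nociceptor library 1). The chloride loader Slc12a2 was at 143 to 168 CPM in the nociceptors, against 85.6 to 137 CPM in the RA-LTMRs and was not called. When the fit adjusted for the satellite glia score, 5 members were lower and Slc12a2 was called higher (2.30, edgeR adjusted p = 0.0212).

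Of 19 ionotropic glutamate receptor genes, 8 were lower and 3 higher. Kainate receptors were split: Grik1 was at 458, 431 and 421 CPM in nonpeptidergic nociceptors, against 10.9, 6.36, 9.01, 8.31 and 14.02 CPM in Aβ RA-LTMRs (5.49 ± 0.28), while Grik3 was at 2.54 to 2.95 CPM in the nociceptors, against 15.3 to 32.6 CPM in the RA-LTMRs (-2.84 ± 0.32). AMPA receptors were split likewise, with Gria1 at 27.3 to 37.1 CPM in the nociceptors, against 1.197 to 8.03 CPM in the RA-LTMRs (3.08 ± 0.37) and Gria3 at 1.76, 1.23 and 2.07 CPM in nonpeptidergic nociceptors, against 58.8, 56.2, 64.6, 53.4 and 38.5 CPM in Aβ RA-LTMRs (-5.00 ± 0.28). Of the presynaptic metabotropic receptors, Grm7 was higher (78.4 to 86.98 CPM in the nociceptors, against 5.86 to 9.26 CPM in the RA-LTMRs; 3.47 ± 0.18) and Grm4 lower (0.416 to 0.998 CPM in the nociceptors, against 27.995 to 36.8 CPM in the RA-LTMRs; -5.28 ± 0.32). Gabbr1 and Gabbr2, the subunits of the GABA-B receptor, were not called (0.79 ± 0.13 and 0.30 ± 0.15).

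Mas-related receptors, a family known for sensing itch compounds, were mostly higher, with 11 of 13 tested members higher and 1 lower (median 6.34). Mrgpra3, the chloroquine receptor, was at 16.5, 31.5 and 34.7 CPM in nonpeptidergic nociceptors, against 0.925, 0, 0.589, 1.33 and 1.47 CPM in Aβ RA-LTMRs, and Mrgprx1, the receptor of the itch peptide BAM, at 13.1, 18.9 and 19.97 CPM in nonpeptidergic nociceptors, against 0.472, 0.0837, 0.0368, 0.222 and 1.37 CPM in Aβ RA-LTMRs. Both were higher (5.07 ± 0.69 and 5.36 ± 0.69, the second 6.39 without RA-LTMR library 5), at levels well under that of Mrgprd per length (15.4 ± 5.39 RPKM for Mrgpra3 and 9.62 ± 1.95 for Mrgprx1, against 251 ± 45.99 for Mrgprd, in nociceptors; mean ± SD, n = 3). The family holds near-identical genes, so reads may have been split among them.

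Of 28 itch, lipid and cytokine receptor genes, 17 were higher and 11 lower, which leaves 0 not called. F2rl2, a protease-activated receptor, was at 371, 396 and 395 CPM in nonpeptidergic nociceptors, against 4.75, 3.83, 3.89, 7.55 and 19.3 CPM in Aβ RA-LTMRs. RA-LTMR library 5 was the highest of its group; the log2 fold change was 5.64 ± 0.49, and 6.29 without it. Serotonin receptors divided between the cell types. Htr4 was higher (31.2 to 40.7 CPM in the nociceptors, against 0.562 to 1.55 CPM in the RA-LTMRs; 5.01 ± 0.53), and Htr7 (0.185 to 0.428 CPM in the nociceptors, against 27.2 to 48.6 CPM in the RA-LTMRs; -6.99 ± 0.46), Htr1d (0.878 to 2.53 CPM in the nociceptors, against 94.3 to 125 CPM in the RA-LTMRs; -6.00 ± 0.36) and Htr1f (0.499 to 2.08 CPM in the nociceptors, against 14.5 to 27.6 CPM in the RA-LTMRs; -4.13 ± 0.59) were lower. Htr1d and Htr1f are targets of migraine drugs of the triptan class.

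Among opioid, cannabinoid, adenosine and adrenergic receptors, 3 of 16 were higher and 9 lower. Oprm1, the mu opioid receptor, was at 31.3, 24.9 and 17.5 CPM in nonpeptidergic nociceptors, against 1.09, 0.795, 3.19, 3.11 and 2.81 CPM in Aβ RA-LTMRs, higher in all 3 nociceptor libraries (3.51 ± 0.60). The nociceptin receptor Oprl1 was at 2.69 to 3.44 CPM in the nociceptors, against 26.2 to 32.3 CPM in the RA-LTMRs (-3.22 ± 0.22) and the adrenergic receptor Adra2c at 0.162 to 0.795 CPM in the nociceptors, against 15.2 to 20.04 CPM in the RA-LTMRs (-4.95 ± 0.38), both lower. Oprd1, the delta opioid receptor, was at 7.72, 21.4 and 9.36 CPM in nonpeptidergic nociceptors, against 13.7, 11.7, 8.12, 11.9 and 9.09 CPM in Aβ RA-LTMRs, overlapping and not called (0.23 ± 0.37).

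Of 42 genes of G proteins, RGS proteins and protein kinase C, which pass receptor signals on inside the cell, 21 were higher and 10 lower (median 1.38). Gna14, a G protein alpha subunit of the Gq class, was at 356, 336 and 359 CPM in nonpeptidergic nociceptors, against 4.28, 1.55, 2.65, 3.73 and 9.18 CPM in Aβ RA-LTMRs, and Prkcd, a calcium-independent protein kinase C, at 712, 711 and 686 CPM in nonpeptidergic nociceptors, against 13.2, 7.93, 10.5, 12.9 and 21.8 CPM in Aβ RA-LTMRs. Neither overlapped (6.37 ± 0.42 and 5.73 ± 0.29). Rgs8, which speeds G protein shut-off, was at 79.3 to 153 CPM in the nociceptors, against 0.624 to 2.72 CPM in the RA-LTMRs (6.29 ± 0.46). Prkcb, a calcium-dependent protein kinase C, was at 0.717 to 2.32 CPM in the nociceptors, against 41.1 to 61.3 CPM in the RA-LTMRs and lower (-5.18 ± 0.29), as were Rgs2 (-3.07 ± 0.29) and the phospholipase gene Plcb1 (-2.93 ± 0.25).

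Of 18 neuropeptide genes, 7 were higher and 4 lower. Nmb, a peptide with known roles in itch and pain, was at 564, 546 and 569 CPM in nonpeptidergic nociceptors, against 4.17, 3.12, 3.499, 8.75 and 16.7 CPM in Aβ RA-LTMRs. RA-LTMR libraries 4 and 5 were the highest of their group and still far below the nociceptors (6.29 ± 0.48). At 1498 ± 49.98 RPKM in nociceptors it was above Calcb, the second CGRP gene, at 472 ± 36.8 RPKM and Tac1 at 147 ± 16.1 RPKM (mean ± SD, n = 3). Calcb was at 514 to 587 CPM in the nociceptors, against 35.2 to 65.6 CPM in the RA-LTMRs (3.64 ± 0.31).

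Neurotrophin receptors differed between the cell types. Ntrk2, the BDNF receptor TrkB, was at 20.3, 19.5 and 20.96 CPM in nonpeptidergic nociceptors, against 444, 426, 474, 423 and 431 CPM in Aβ RA-LTMRs, and Ngfr, the low-affinity receptor of all neurotrophins, at 24.8, 18.98 and 27.3 CPM in nonpeptidergic nociceptors, against 715, 705, 743, 507 and 741 CPM in Aβ RA-LTMRs. The groups were tight and wide apart (-4.44 ± 0.23 and -4.85 ± 0.25). Ntrk3, the receptor of neurotrophin-3, was at 3.88 to 8.499 CPM in the nociceptors, against 26.2 to 62.1 CPM in the RA-LTMRs (-2.99 ± 0.34). Gfra1, the GDNF co-receptor, was at 46.1 to 47.5 CPM in the nociceptors, against 51.8 to 87.1 CPM in the RA-LTMRs and not called (-0.59 ± 0.24); with the glia score in the fit it was called lower (-2.15).

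Of 48 transcription factors of sensory neurons, 15 were higher and 18 lower. Runx1 was at 646, 582 and 557 CPM in nonpeptidergic nociceptors, against 74.4, 85.5, 103, 71.3 and 69.5 CPM in Aβ RA-LTMRs. It was the higher in each nociceptor library (2.88 ± 0.41) but not near 0 in RA-LTMRs. Prdm12, needed for the nociceptor lineage, was at 151, 177 and 181 CPM in nonpeptidergic nociceptors, against 4.03, 1.86, 2.89, 4.66 and 3.93 CPM in Aβ RA-LTMRs (5.62 ± 0.42), and Insm2, a zinc finger factor, at 51.2 to 53.4 CPM in the nociceptors, against 0.203 to 1.28 CPM in the RA-LTMRs (6.20 ± 0.43). Maf, a factor of touch neurons, was at 1.89, 2.27 and 2.42 CPM in nonpeptidergic nociceptors, against 28.9, 31.7, 31.95, 33.05 and 25.04 CPM in Aβ RA-LTMRs (-3.78 ± 0.29), and Shox2, which acts in the TrkB lineage, at 0.374, 0.254 and 0.0994 CPM in nonpeptidergic nociceptors, against 43.6, 46.9, 38.5, 30.3 and 22.5 CPM in Aβ RA-LTMRs (-7.23 ± 0.69). Esrrg, an orphan nuclear receptor, was at 0.439 to 1.497 CPM in the nociceptors, against 77.7 to 109.7 CPM in the RA-LTMRs (-6.49 ± 0.43). Pou4f1, the general sensory neuron factor Brn3a, was at 212 to 219 CPM in the nociceptors, against 80.9 to 122 CPM in the RA-LTMRs and just short of the fold threshold (0.99 ± 0.17), which it passed without nociceptor library 1 (1.01) and without RA-LTMR library 2, 3 or 5 (1.02, 1.04 and 1.02), against the RA-LTMR libraries of the same read-length range alone (1.05) and with read length in the fit (1.13).

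Many genes of the large myelinated axon were lower in nociceptors. Nefh, the heavy neurofilament and the usual stain for large neurons, was at 165, 132 and 126 CPM in nonpeptidergic nociceptors, against 2425, 3519, 3535, 3297 and 2542 CPM in Aβ RA-LTMRs. The log2 fold change was -4.44 ± 0.24, larger in size than for Nefm (-3.46 ± 0.23) and Nefl (-2.14 ± 0.21), the medium and light chains. Prph, the peripherin of small neurons, was at 1208 to 1412 CPM in the nociceptors, against 372 to 691 CPM in the RA-LTMRs (1.26 ± 0.25), and Ina, alpha-internexin, at 115 to 142 CPM in the nociceptors, against 3.47 to 7.04 CPM in the RA-LTMRs (4.61 ± 0.37); both were higher. Among node and axon initial segment genes, 12 of 19 were lower and 1 was higher (median -2.07). Nfasc, whose promoter is shown above, was at 8.0003, 3.65 and 3.13 CPM in nonpeptidergic nociceptors, against 524, 504, 573, 459.7 and 341 CPM in Aβ RA-LTMRs (-6.60 ± 0.35). Dlg2, a scaffold of Kv1 channels, was at 2.61 to 6.13 CPM in the nociceptors, against 171 to 337 CPM in the RA-LTMRs (-5.85 ± 0.31), and Lgi3, a secreted partner of axonal Kv1 complexes, at 0.624 to 5.26 CPM in the nociceptors, against 237 to 390.2 CPM in the RA-LTMRs (-6.84 ± 0.50; -7.88 without nociceptor library 1). Ank3, ankyrin-G, was the member that was higher (1078, 1139 and 1074 CPM in nonpeptidergic nociceptors, against 382, 446, 547, 354 and 295 CPM in Aβ RA-LTMRs; 1.44 ± 0.21). In the covariate fit with the satellite glia score, 12 of these genes were lower.

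Of 12 perineuronal net genes, 8 were lower and 2 higher (1 without any one of nociceptor libraries 1 and 2 and RA-LTMR libraries 1, 2 and 5). These nets are a matrix around fast-firing neurons. Hapln4, a link protein, was at 2.89, 1.11 and 0.663 CPM in nonpeptidergic nociceptors, against 188, 164, 196, 197 and 216 CPM in Aβ RA-LTMRs, and Hapln1, another, at 0.347 to 1.67 CPM in the nociceptors, against 73.2 to 107 CPM in the RA-LTMRs. Both were near 0 in nociceptors (-6.94 ± 0.44 and -6.76 ± 0.57; -7.77 and -7.76 without nociceptor library 1). Tnr, tenascin-R, was higher (14.4 to 18.9 CPM in the nociceptors, against 1.15 to 1.41 CPM in the RA-LTMRs; 3.76 ± 0.34).

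Genes of transmitter release differed in both directions. Slc17a7, the vesicular glutamate transporter of large afferents, was at 2.26, 1.06 and 1.11 CPM in nonpeptidergic nociceptors, against 222, 245, 217, 231 and 312 CPM in Aβ RA-LTMRs (-7.36 ± 0.37). Of 16 synaptotagmins, the calcium sensors of vesicle release, 7 were higher and 5 lower. Syt7, a slow high-affinity sensor, was at 655, 652 and 688 CPM in nonpeptidergic nociceptors, against 8.199, 5.77, 9.14, 21.7 and 12.7 CPM in Aβ RA-LTMRs (5.87 ± 0.34), and Syt6 and Syt9 were higher as well (388 to 459 CPM in the nociceptors, against 3.99 to 14.4 CPM in the RA-LTMRs, 5.83 ± 0.40, for Syt6 and 4.99 ± 0.29 for Syt9). Syt2, a fast sensor, was at 10.1, 1.55 and 4.51 CPM in nonpeptidergic nociceptors, against 446, 495, 511, 554 and 385 CPM in Aβ RA-LTMRs (-6.47 ± 0.42, or -7.28 without nociceptor library 1). Among calcium-binding proteins Vsnl1, a neuronal calcium sensor, was at 2.91 to 11.7 CPM in the nociceptors, against 749.6 to 1088 CPM in the RA-LTMRs (-7.15 ± 0.39, or -7.99 without nociceptor library 1) and S100b at 7.81 to 23.1 CPM in the nociceptors, against 514 to 795 CPM in the RA-LTMRs (-5.48 ± 0.32).

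Subunits of the sodium pump, which restores ion gradients after firing, differed in both directions. Of 13 genes of pump subunits and FXYD regulators, 3 were higher and 7 lower (median -1.21), where 15.9% and 19.6% of all genes tested were. Fxyd2, a regulator known as the gamma subunit, was at 2613, 2486 and 3316 CPM in nonpeptidergic nociceptors, against 10.1, 9.08, 6.21, 15.8 and 76.5 CPM in Aβ RA-LTMRs. RA-LTMR library 5 was the highest of its group by a wide gap; the log2 fold change was 6.90 ± 0.72, and 8.10 without it. Atp1b3 was at 1524, 1359 and 1294 CPM in nonpeptidergic nociceptors, against 58.4, 47.8, 56.4, 57.2 and 63.6 CPM in Aβ RA-LTMRs (4.62 ± 0.29). Fxyd7, another member of the FXYD family, was at 8.02, 2.75 and 3.83 CPM in nonpeptidergic nociceptors, against 44.3, 37.6, 57.2, 65.7 and 88.2 CPM in Aβ RA-LTMRs and lower (-3.58 ± 0.42).

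Guidance genes, which steer axons in development, were more often lower than higher in nociceptors. Of 31 semaphorins, plexins and neuropilins, 19 were lower and 6 higher. Of 36 Eph, ephrin, Slit, Robo and netrin-G genes, 17 were lower and 1 was higher. Of all genes tested, 19.6% were lower and 15.9% higher. In the other small-fibre comparison, 9 of the first list were lower and 5 higher. Of the second list, 13 were lower there and 8 higher. In that comparison 10.9% of all genes tested were lower and 14.3% higher. Plxnc1, the receptor of semaphorin 7A, was at 1379, 1207 and 1222 CPM in nonpeptidergic nociceptors, against 96.3, 90.2, 96.7, 87.7 and 90.98 CPM in Aβ RA-LTMRs in one direction (3.78 ± 0.22), and Sema7a, that ligand, at 1.78, 0.832 and 1.11 CPM in nonpeptidergic nociceptors, against 91.2, 98.5, 101, 126 and 86.2 CPM in Aβ RA-LTMRs in the other (-6.33 ± 0.30). Slit2, a repellent of axons, was at 0.552, 0.185 and 0.298 CPM in nonpeptidergic nociceptors, against 99.4, 109.7, 137, 71.3 and 64.9 CPM in Aβ RA-LTMRs (-8.09 ± 0.42), and Ntng1, netrin-G1, at 1.29 to 3.53 CPM in the nociceptors, against 291 to 395 CPM in the RA-LTMRs (-7.37 ± 0.62; -8.02 without nociceptor library 1). Efna1 was the member that was higher (26.4 to 35.4 CPM in the nociceptors, against 5.38 to 8.43 CPM in the RA-LTMRs; 2.24 ± 0.30). When the fit adjusted for the satellite glia score, 11 of the semaphorin, plexin and neuropilin genes were lower.

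**Figure D4:**
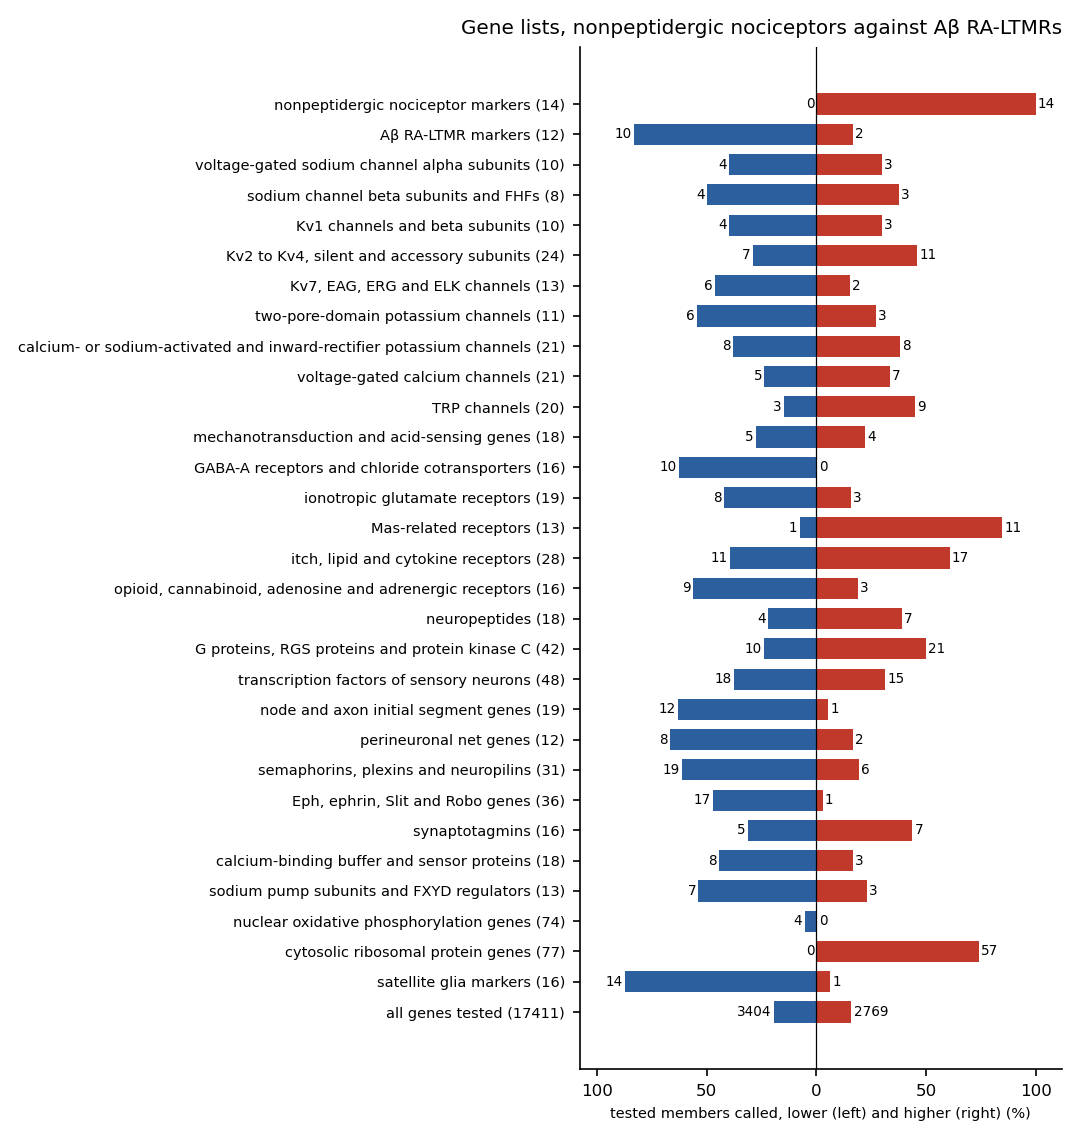
Share of the tested members of 30 gene lists, and of all genes tested, that were higher (red, to the right) or lower (blue, to the left) in nonpeptidergic nociceptors than in Aβ RA-LTMRs (%), with the counts beside the bars and the number tested in brackets. Markers of nonpeptidergic nociceptors (14 of 14), Mas-related receptors (11 of 13) and ribosomal protein genes (57 of 77) lie to the right, and satellite glia markers (14 of 16), node genes (12 of 19) and GABA-A receptors (10 of 16) to the left.

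Among all genes tested, the largest differences at 5 CPM or more in the higher group fell on genes outside these lists as well. Cyp26b1, an enzyme that breaks down retinoic acid, was at 10.5, 18.1 and 20.1 CPM in nonpeptidergic nociceptors, against 0.0544, 0, 0, 0 and 0.0624 CPM in Aβ RA-LTMRs (9.27 ± 0.76, or 10.01 without RA-LTMR library 1, which held most of its reads in that group). Paqr5, a membrane progestin receptor, was at 165, 149.8 and 168 CPM in nonpeptidergic nociceptors, against 0.816, 0.565, 0.737, 1.87 and 1.03 CPM in Aβ RA-LTMRs (7.40 ± 0.36), and A3galt2, a glycosyltransferase, at 69.2 to 94.1 CPM in the nociceptors, against 0.0837 to 1.69 CPM in the RA-LTMRs (7.37 ± 0.52; 8.24 without RA-LTMR library 4). Otoa, otoancorin of the inner ear, was at 21.5, 18.3 and 23.1 CPM in nonpeptidergic nociceptors, against 0, 0.105, 0.129, 0.0888 and 0 CPM in Aβ RA-LTMRs (8.26 ± 0.91). On the other side, Olfm3, an olfactomedin, was at 0.0535, 0 and 0.0497 CPM in nonpeptidergic nociceptors, against 23.3, 24.9, 28.8, 22.9 and 21.04 CPM in Aβ RA-LTMRs (-9.25 ± 0.54), Tacr3, the neurokinin B receptor, at 0 to 0.0462 CPM in the nociceptors, against 11.7 to 23.04 CPM in the RA-LTMRs (-9.22 ± 0.86), and Rem2, a small GTPase that inhibits calcium channels, at 0.208 to 0.428 CPM in the nociceptors, against 77.3 to 127 CPM in the RA-LTMRs (-8.12 ± 0.40). Genes of ovarian steroid receptors were among them. Esr1, the estrogen receptor alpha, was at 0.374, 0.0693 and 0.149 CPM in nonpeptidergic nociceptors, against 43.5, 47.5, 56.5, 31.1 and 34.6 CPM in Aβ RA-LTMRs, and Pgr, the progesterone receptor, at 0.0535, 0.0462 and 0 CPM in nonpeptidergic nociceptors, against 10.4, 15.3, 16.9, 17.8 and 9.52 CPM in Aβ RA-LTMRs. Neither overlapped (-7.69 ± 0.44 and -8.67 ± 0.47); without nociceptor library 1 they stood at -8.51 and -9.29, and Pgr at -8.04 without nociceptor library 3.

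The genes above can be set beside their values in the other small-fibre libraries, though the difference between these comparisons was not tested. Nmb, Lpar3, Agtr1a, Prkcq, Syt6 and Otoa were higher in nonpeptidergic nociceptors than in RA-LTMRs, while in peptidergic nociceptors and C-LTMRs against Aβ SA1- and Field-LTMRs their log2 fold changes were 0.54, 0.66, 0.55, 1.05, 0.03 and 0.31, none of them called. Lpar3 had mean levels of 14.3 CPM in peptidergic nociceptors, 13.2 CPM in C-LTMRs, 15.3 CPM in Aδ-LTMRs, 3.43 CPM in Aβ SA1-LTMRs, 22.5 CPM in Aβ Field-LTMRs and 2.395 CPM in proprioceptors. Other genes ran in opposite directions, lower in nonpeptidergic nociceptors than in RA-LTMRs and higher in the other small-fibre libraries. Cacna1h had log2 fold changes of -4.73 here and 2.74 in those libraries, and its mean levels elsewhere were 21.9 CPM in peptidergic nociceptors, 104 CPM in C-LTMRs, 231 CPM in Aδ-LTMRs, 3.002 CPM in Aβ SA1-LTMRs, 16.7 CPM in Aβ Field-LTMRs and 3.26 CPM in proprioceptors. The same pair of values was -2.44 and 3.10 for Kit, the stem cell factor receptor, -2.97 and 2.42 for Npy1r, a neuropeptide Y receptor, -4.47 and 1.17 for the leak channel Kcnk3, and -3.95 and 1.45 for the zinc finger gene Zfp521. The edgeR test passed in both comparisons for these 5 genes. Ngfr, at -4.85 here, was at -0.37 and not called there. Its mean levels were 890.2 CPM in peptidergic nociceptors, 450.1 CPM in C-LTMRs, 604 CPM in Aδ-LTMRs, 617 CPM in Aβ SA1-LTMRs, 1084 CPM in Aβ Field-LTMRs and 207 CPM in proprioceptors, all above the range of 18.98 to 27.3 CPM in nonpeptidergic nociceptors.

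**Figure D5:**
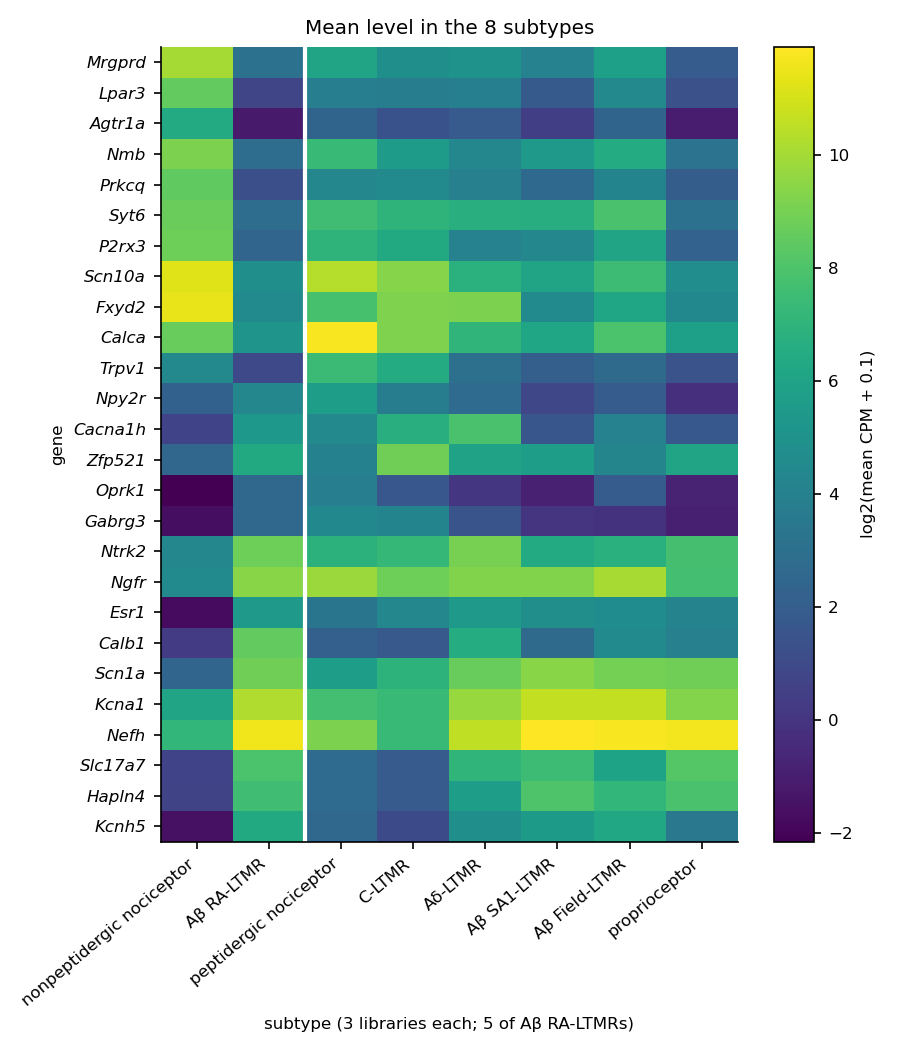
Mean level of 26 genes in the 8 subtypes as colour, log2(mean CPM + 0.1), with nonpeptidergic nociceptors and Aβ RA-LTMRs at the left of the white line and the other 6 subtypes at its right. Lpar3 and Agtr1a are brightest in nonpeptidergic nociceptors; Cacna1h and Ngfr are darker there than in peptidergic nociceptors or C-LTMRs, and Nefh and Kcna1 are bright in every A-fibre subtype.

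Most genes of oxidative phosphorylation were not called. Of 74 nuclear genes of oxidative phosphorylation, 0 were higher and 4 lower, whereas 46 were lower in peptidergic nociceptors and C-LTMRs than in Aβ SA1- and Field-LTMRs, where 10.9% of all genes were. Without RA-LTMR library 5, 5 were higher and 2 lower in nonpeptidergic nociceptors, and without libraries 4 and 5, 9 were higher and 5 lower. Atp5b, of the ATP synthase, was at 1656 to 1976 CPM in the nociceptors, against 2929.8 to 3335 CPM in the RA-LTMRs (-0.77 ± 0.15); it was not called, but with the glia score in the fit it was called lower (-1.71). Of 34 glycolysis and TCA cycle genes, 12 were lower and 3 higher. The lactate dehydrogenase genes ran in opposite directions: Ldha was at 409, 519 and 492 CPM in nonpeptidergic nociceptors, against 167, 128, 133, 121 and 184 CPM in Aβ RA-LTMRs (1.69 ± 0.16), and Ldhb at 13.1, 10.96 and 10.03 CPM in nonpeptidergic nociceptors, against 271, 265, 265, 222 and 417 CPM in Aβ RA-LTMRs (-4.66 ± 0.31).

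Ribosomal protein genes were higher as a list, 57 of 77 with 0 lower and a median log2 fold change of 1.26. In the other small-fibre comparison 1 was higher and 1 lower, where 14.3% and 10.9% of all genes tested were. Rps2 was at 42.2, 9.38 and 30.9 CPM in nonpeptidergic nociceptors, against 2.21, 2.301, 0.681, 0.533 and 1.19 CPM in Aβ RA-LTMRs (4.28 ± 0.53), and Rpl4, the reverse case of an abundant and well-counted member, at 349, 365 and 347 CPM in nonpeptidergic nociceptors, against 267, 278, 234, 258 and 265 CPM in Aβ RA-LTMRs, not called (0.44 ± 0.14). The count depended on the libraries: against RA-LTMR libraries 4 and 5 alone, whose reads have the same range of lengths as the nociceptors', 17 members were higher, and after adjusting for the glia score 5 were. These genes have many near-identical pseudogene copies, so their counts are uncertain.

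Marker genes of other cell types were counted in both groups. Of 16 satellite glia markers, 14 were lower in nociceptors and 1 higher, and they summed to 1225 to 1335 CPM in nociceptors and 2206 to 4339 CPM in RA-LTMRs. Gja1, a glial gap junction gene, was at 0.855, 1.73 and 1.66 CPM in nonpeptidergic nociceptors, against 31.9, 23.1, 23.6, 14.9 and 24.2 CPM in Aβ RA-LTMRs (-4.06 ± 0.48), and Slc1a3, a glial glutamate transporter, at 0.624 to 0.948 CPM in the nociceptors, against 13.3 to 17.1 CPM in the RA-LTMRs (-4.19 ± 0.35). Cadm1, an adhesion gene that neurons also express, was the member that was higher (756 to 799 CPM in the nociceptors, against 70.7 to 104 CPM in the RA-LTMRs; 3.22 ± 0.27) and made up most of the sum in nociceptors. In such pools, fewer cells of a type and less RNA per cell cannot be told apart. Schwann cell markers summed to 1809 to 1906 CPM in nociceptors and 566 to 791 CPM in RA-LTMRs. Of these sums, Pmp22 made up 1727 to 1828 and 419 to 650.4 CPM. The median log2 fold change of the list had the other sign, at -1.11, but few members were called. Of 12 Schwann cell markers, 1 was higher, 2 were lower and 9 were not called, where 15.9% of all genes tested were higher and 19.6% lower. Their mean log2 CPM averaged 1.77 in nociceptors and 2.45 in RA-LTMRs, with overlapping libraries (exact two-sided permutation p = 0.0714, 0.188 after adjustment). Fibroblast markers summed to 10.2 to 17.9 CPM in nociceptors and 33.0 to 69.2 CPM in RA-LTMRs, pericyte markers to 34.7 to 59.0 and 8.93 to 18.5 CPM, endothelial markers to 2.45 to 5.49 and 6.04 to 16.1 CPM, and macrophage markers to 2.17 to 7.65 and 1.09 to 2.56 CPM. Their part in the differences between the neurons was not tested.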

How the data were processed

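Neurons were sorted in pools from mouse dorsal root ganglia; per the labels' protocols, their RNA went through Nugen amplification and TruSeq library preparation. STAR, HTSeq 0.6.1, DESeq2 1.14.1, Cuffdiff, FastQC 0.11.3 and mm10 appear in the submitters' processing notes without their roles. The authors deposited 26 libraries as raw counts per Ensembl gene and as RPKM, and a summary of the alignments. In that deposited summary, mapped reads are a count, exonic and like shares a fraction (printed here as %), GC content a percent and the 5′-3′ bias a ratio whose direction is not given in the sources used here; nor is the strand setting.

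Of 39017 genes, 38828 were named through the RPKM table and 180 through a name table, which left 9 identifiers. edgeR 4.0.16 (R 4.3.3) kept 17411 genes by filterByExpr over 8 subtypes, scaled by TMM and estimated the spread (common dispersion 0.107) in one robust quasi-likelihood fit of the 26 libraries. Calls required an adjusted p (Benjamini-Hochberg) below 0.05 together with a log2 fold change of 1 or more in size. Standard errors were the log2 fold change divided by the square root of F. The fit was tested on simulated data. Single measures went through exact permutation tests. Levels of single genes were set side by side in RPKM, while marker sums and the part of a gene in them were in CPM.

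The genes, 55 lists, tests and promoters were chosen with earlier results of these data known. The naming rule took the labelling genes, the 20 largest called changes per direction at 5 CPM or more without overlap and with over 3 counts in the lower group, up to 4 called members per direction and 2 abundant uncalled members of each list, and a fixed set of channels, receptors and factors; not all are printed. Alternatives covered normalisation, filters, DESeq2 1.42.0, limma 3.58.1 on RPKM, a replicate block, read length, glia and each library left out. Measures and figures used Python 3.11.15, SciPy 1.17.1 and matplotlib 3.10.9. The smallest library held 22651313 counts.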

Additional observations from a re-analysis of the deposited data

Results flagged for a closer look

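Each group of 5 RA-LTMR libraries was examined for a library far from the other 4, in 169 sets of values. In 17 of them the gap from the farthest library to its neighbour took up more of the range than Dixon's 95% critical value (0.71 for 5 libraries), where chance flags about 1 set in 20. The 3 nociceptor libraries were too few to examine in this way. Library 5 was the highest for Fxyd2 (76.5 CPM, others 6.21 to 15.8), F2rl2 (19.3 CPM, others 3.83 to 7.55) and Kcng2 (3.31 CPM, others 0.858 to 1.43), all of them genes higher in nociceptors. It was also the highest for Kcnh2 (233 CPM, others 157 to 172.5), Kcnk1 (232 CPM, others 127 to 143), Kcnk3 (38.5 CPM, others 17.4 to 23.2), Grik3 (32.6 CPM, others 15.3 to 19.9) and Ldhb (417 CPM, others 222 to 271), which were lower in nociceptors, and for Gabbr1 (312 CPM, others 218 to 243), which was not called. It was the lowest for Kcnq3 (159 CPM, others 253 to 272).

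Library 4 was the highest for P2rx3 (10.1 CPM, others 3.81 to 4.53), Lpar3 (4.18 CPM, others 0.586 to 1.51) and A3galt2 (1.69 CPM, others 0.0837 to 0.406), all higher in nociceptors. It was the lowest for Ngfr (507 CPM, others 705 to 743) and for mapped reads (43098000, others 75832000 to 81942000). Library 3 was the highest for Trpa1 (5.84 CPM, others 1.44 to 2.18), and library 1 the lowest for Fgf12 (123 CPM, others 137 to 140.4). Libraries 4 and 5 are the pair with the lowest exonic shares of the group.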

How the results depend on the processing

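Of the 148 called genes named in the text, 122 kept their call under every alternative and 146 under all but the glia covariate and RPKM; Npy2r and Ret were the exceptions, and no named gene changed direction. Adjusting for the satellite glia score gave 788 genes higher and 1124 lower, and 24 of the 148 named genes lost their call; the score does not overlap between the groups, and glial RNA and subtype cannot be told apart there. On log2(RPKM + 1), 2108 genes were higher and 1647 lower, and in the other small-fibre comparison 1244 were higher and 666 lower; on log2(RPKM + 0.1), 1137 were lower there. A pseudocount shrinks low values by its construction. The other alternatives gave 2185 to 3035 genes higher and 2792 to 3678 lower. Leaving out each library in turn gave 2588 to 2852 higher and 3102 to 3415 lower, and 2471 to 2607 and 1873 to 1928 in the other small-fibre comparison; the glia score difference ran from -2.55 to -2.35. RA-LTMR libraries 4 and 5 were left out together (2727 and 3519), an alternative chosen after seeing the data. The replicate block gave 2903 higher and 3360 lower. Deviations of same-numbered libraries correlated at -0.062, -0.012 and -0.033, and no library correlated best with its own number. The numbers thus showed no sign of a pairing, though so few correlations cannot exclude one. Levels under about 1 CPM rest on few counts, and a log2 fold change against such a level depends on the prior count.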

Other observations

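The lists here are to be set beside all genes tested, of which 19.6% were lower and 15.9% higher. Of 11 immediate early and stress genes, 3 were lower in nociceptors and 0 higher. Only 1 was lower without nociceptor library 1, without RA-LTMR library 1 or without RA-LTMR library 5. Fos, an immediate early transcription factor, was at 76.7 to 171 CPM in the nociceptors, against 63.5 to 223 CPM in the RA-LTMRs and was not called. Of 8 axon injury genes, 1 was higher and 1 lower, and leaving out single libraries gave 0 to 2 higher and 0 to 1 lower. Atf3, a transcription factor induced by nerve injury, was at 20.7 to 72.2 CPM in the nociceptors, against 18.5 to 89.05 CPM in the RA-LTMRs and was not called. Of 19 inner-ear and Usher genes, 8 were lower in nociceptors (5 without nociceptor library 1) and 2 higher. Clrn1, a gene of Usher syndrome, was at 0.891, 0.624 and 0.829 CPM in nonpeptidergic nociceptors, against 39.3, 26.9, 32.4, 49.97 and 24.01 CPM in Aβ RA-LTMRs (log2 fold change -5.45 ± 0.30). Tecta, a gene of the tectorial membrane, was at 6.201, 10.5 and 7.36 CPM in nonpeptidergic nociceptors, against 0.327, 0.439, 0.608, 0.355 and 0.562 CPM in Aβ RA-LTMRs (log2 fold change 4.11 ± 0.30). The median span on the genome was 23498 bp for genes higher in nociceptors and 34803 bp for genes lower in them, against 25523 bp for all genes tested; no test was made of these lengths.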
